A study of Mus musculus with 2 samples.

Results

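The genes examined here read out the pair of signals that balance self-renewal of mouse embryonic stem (ES) cells. They are 10 genes with 12 probe sets, out of 19938 genes with 21789 probe sets that carry a single gene symbol on the array. Of these, 4 belong to the leukemia inhibitory factor (LIF) and STAT3 pathway (Lifr, Il6st, Stat3 and Socs3) and 6 to fibroblast growth factor (FGF) signalling and its feedback on the kinase ERK (Fgf4, Dusp6, Spry2, Spry4, Etv4 and Etv5). They were taken by symbol for their known roles, and the rule itself used no measured value. The arrays ask how transcript levels differ once CTCFL, the testis paralog of the zinc finger protein CTCF, is switched on in ES cells.

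LIF binds its receptor, which pairs with gp130 and activates JAK kinases. These phosphorylate STAT3, which enters the nucleus and switches on genes of self-renewal together with its own inhibitor. FGF4, which ES cells secrete, acts through FGF receptors, RAS and ERK and readies the cells for lineage commitment. Its targets include phosphatases and Sprouty proteins that dampen the same cascade, so that their RNA is widely used as a readout of ERK activity. Both signals run through protein phosphorylation, which an RNA array does not measure.

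The study used 2 Affymetrix Mouse Gene 1.0 ST arrays, 1 for each group. The induced array held CTCFL_V5_GFP ES cells that were exposed to doxycycline over 3 days and then sorted by flow cytometry for green fluorescent protein (GFP). The non-induced array held unsorted CTCFL_V5_GFP ES cells that were not exposed to doxycycline. Both carried rtTA at ROSA26 and a TRE-driven mouse CTCFL-V5-GFP construct with neomycin selection, and both grew on gelatin with LIF in the medium, so that the LIF signal was supplied from outside in both groups. Clones were picked after selection, and whether the arrays held 1 clone was not given. Doxycycline, cell sorting and CTCFL changed together between the arrays and cannot be told apart. With 1 array per group there is no replicate check, no test was made, and each difference below compares these arrays and not the conditions.

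Values are log2 signals after robust multi-array averaging, and a difference is the induced minus the non-induced value. Ctcfl was at 9.44 in the induced and 5.99 in the non-induced array, with a difference of 3.45, in keeping with the labels. The ES cell identity of both arrays was seen in Pou5f1 (11.98 induced, 11.96 non-induced), Sox2 (10.82 induced, 10.83 non-induced) and Nanog (10.86 induced, 11.08 non-induced). The middle 50% of all genes differed by -0.24 to 0.26. A gene was counted as called when it differed by log2 0.58 or more, about 1.49-fold, with its higher value at or above 6.36, the median of all gene values. That median is called the floor, and 10697 genes reached it.

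The promoters of these genes were searched for the motifs of STAT factors, ETS factors and CTCF, and 3 of them are shown for the motif each holds. They are RefSeq windows of GRCm38.p6, 250 bases before to 50 after the start site, on the strand of the gene, with the match in capitals. Windows were found for 8 of the 10 genes. The Socs3 window (chr11:117969317-117969616, minus strand) holds the palindromic STAT motif TTCNNNGAA with its first base 154 bases upstream of the start. The Spry2 window (chr14:105896770-105897069, minus strand) holds the ETS core CCGGAA, which begins at base 34 downstream. The Fgf4 window (chr7:144861136-144861435, plus strand) holds AGGGGGC, a stretch of the CTCF consensus, 43 bases upstream.
Socs3: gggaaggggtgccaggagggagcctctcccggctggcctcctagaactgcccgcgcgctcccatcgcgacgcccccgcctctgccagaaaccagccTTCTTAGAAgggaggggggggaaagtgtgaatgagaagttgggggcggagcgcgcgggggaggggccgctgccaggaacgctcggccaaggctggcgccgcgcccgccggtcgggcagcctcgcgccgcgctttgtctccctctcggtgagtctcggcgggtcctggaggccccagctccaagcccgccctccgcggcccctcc
Spry2: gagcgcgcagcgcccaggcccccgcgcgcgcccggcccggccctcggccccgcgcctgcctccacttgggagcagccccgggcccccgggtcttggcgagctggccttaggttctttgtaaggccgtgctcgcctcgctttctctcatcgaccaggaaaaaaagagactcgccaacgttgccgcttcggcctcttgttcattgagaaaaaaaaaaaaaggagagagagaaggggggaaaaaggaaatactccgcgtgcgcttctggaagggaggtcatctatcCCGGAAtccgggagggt
Fgf4: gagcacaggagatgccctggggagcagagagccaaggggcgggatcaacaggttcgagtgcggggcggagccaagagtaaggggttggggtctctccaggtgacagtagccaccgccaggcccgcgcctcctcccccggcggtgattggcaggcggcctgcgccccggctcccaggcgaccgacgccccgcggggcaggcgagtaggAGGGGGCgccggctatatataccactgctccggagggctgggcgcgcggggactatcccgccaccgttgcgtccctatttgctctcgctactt
Searched on both strands, the STAT motif was in 8.30% of all 32851 promoter windows, the ETS core in 14.9% and the CTCF stretch in 10.6%. Of the 10 windows of the member genes, the STAT motif was in that of Socs3 alone, the ETS core in those of Il6st and Spry2, and the CTCF stretch in that of Fgf4 alone. These matches are descriptions of letters and say nothing of binding in these cells.

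None of the 10 genes was past log2 0.58 by the probe set that represents it. That probe set is the one with the higher mean where a gene has several. All 10 genes were at or above the floor. Of all genes that reached the floor, 5.31% were higher by that amount and 8.45% were lower. With shares this small, a count of 0 of 10 does not set these genes apart from others. Of the 10, 6 lay between -0.24 and 0.26, the range of the middle 50% of all genes. At log2 1, 0.477% were higher and 1.79% lower, with none of the 10 on either side. The 10 differences ran from -0.32 to 0.15 with a median of -0.19, against 0.01 for all genes and -0.03 for all genes at or above the floor. They were below 0 for 7 genes and above for 3, where 53.4% of all genes at or above the floor were below 0. With the floor at the 75th percentile that share was 62.1%, with a median of -0.09. Genes of like level also leaned down, with medians of -0.13 to -0.07 for the 500 genes closest to each member. Each of the 10 differences lay within the middle 95% of the differences of these 500 genes. That range describes the spread between genes on these arrays and not between replicates. The Etv5 value used here is from a probe set whose ID lies apart from its gene, as given below. With its other probe set, at -0.61, 1 of the 10 genes was lower past log2 0.58. The share of all genes at or above the floor was 8.52%, with probe sets placed apart from their gene left out. The median of the 10 was then -0.25.

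**Figure D1:**
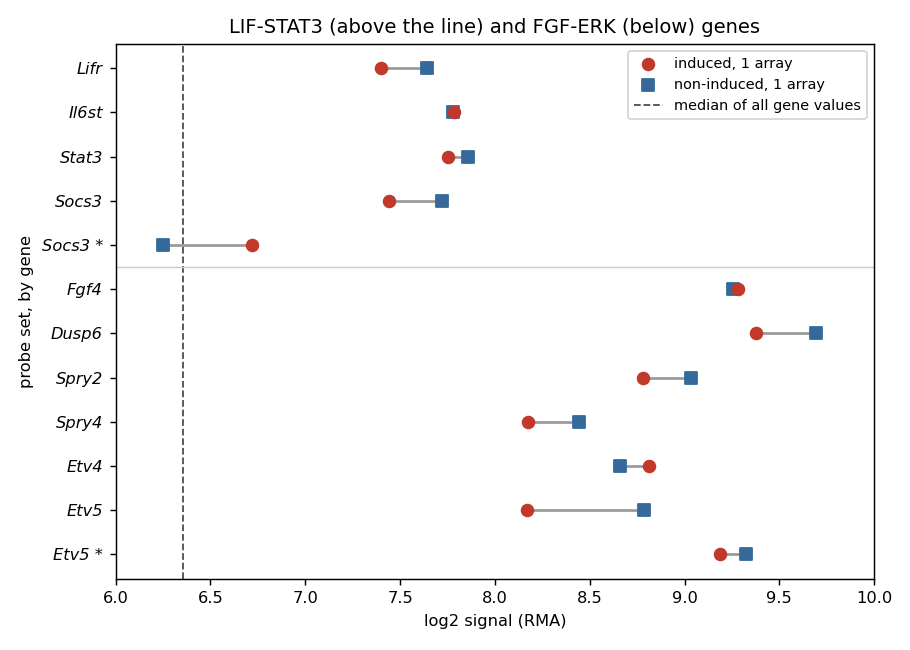
Log2 signal of the 12 probe sets of the 10 genes in the induced (circles) and the non-induced array (squares), 1 array each, joined by a line; a dashed line is drawn at the floor, 6.36. Asterisks mark probe sets whose ID does not lie among probe sets of the same chromosome and strand as their gene. The widest gap downwards is that of Etv5 (8.17 induced, 8.79 non-induced), and the widest upwards is that of the marked Socs3 probe set (6.72 induced, 6.25 non-induced).

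In the LIF receptor complex, the 2 chains gave different values. Lifr, the chain that binds LIF, was at 7.40 in the induced and 7.64 in the non-induced array, with a difference of -0.24. Il6st, which encodes the shared signal transducer gp130, was at 7.79 in the induced and 7.78 in the non-induced array, with a difference of 0.00. So the induced array was the lower for Lifr, and the arrays were level for Il6st. The 500 genes nearest in level had a median of -0.09 for Lifr and -0.10 for Il6st. Neighbouring genes of the same receptor family were below the floor in both arrays, so their differences say little. Osmr, the oncostatin M receptor next to Lifr on chromosome 15, differed by -0.06, and Il31ra, next to Il6st on chromosome 13, by 0.05.

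Stat3, the transcription factor that carries the LIF signal, was at 7.75 in the induced and 7.86 in the non-induced array. Its difference was -0.11, and the 500 genes nearest in level had a median of -0.10. The genes beside it on chromosome 11 did not share that value. Stat5a was at 6.60 in the induced and 5.96 in the non-induced array, higher by 0.64, and Stat5b was at 7.02 induced and 6.06 non-induced, higher by 0.96. Both encode STAT proteins that respond to other cytokines, and they lie side by side with Stat3. Under 4 other scalings (arrays centred on their medians, a lowess trend removed, a second quantile normalization, and an offset of 32 on the linear scale) the Stat5b difference was at least 0.72, while that of Stat5a was 0.46 to 0.57 and no longer past log2 0.58.

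Socs3, the inhibitor that STAT3 induces, had probe sets that went opposite ways. Probe set 10393449, which represents the gene, was at 7.44 in the induced and 7.72 in the non-induced array, with a difference of -0.28. Probe set 10383010 was at 6.72 induced and 6.25 non-induced, higher by 0.47. The platform lists a RefSeq transcript for the first and a single other accession for the second. Probe set IDs of this array follow the genome by chromosome and strand. All 26 neighbours of the first with a known strand, among the 20 on either side by ID, were genes of the same strand as Socs3, and 0 of 29 were for the second. What the second probe set reads was not tested. Its mean with the first gave a difference of 0.094, so the direction for Socs3 rests on the probe set used.

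Fgf4, the FGF that ES cells make themselves, was at 9.28 in the induced and 9.25 in the non-induced array, with a difference of 0.03. The arrays were level for this gene, whose enhancer is bound by OCT4 and SOX2 in ES cells. The genes on both sides of it on chromosome 7 are FGF genes too. Fgf3 was at 6.39 in the induced and 5.61 in the non-induced array, higher by 0.79. It was 0.52 with the offset, and below the floor in both arrays after centring (0.69) and after lowess (0.65). Fgf15 was at 7.11 induced and 6.79 non-induced, a difference of 0.32 that did not reach log2 0.58.

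Dusp6, Spry2 and Spry4, the feedback inhibitors of ERK among the 10 genes, each had a difference below 0 that did not reach log2 0.58. Dusp6, a phosphatase that removes the activating phosphates of ERK in the cytoplasm, was at 9.37 in the induced and 9.69 in the non-induced array, with a difference of -0.32 or 1.25-fold lower. Spry2 was at 8.78 induced and 9.03 non-induced, a difference of -0.25. Spry4 was at 8.17 induced and 8.44 non-induced, a difference of -0.27. Both encode Sprouty proteins, which block the step from receptor to RAS and RAF. For all 3 the induced array was the lower, by 1.19- to 1.25-fold. Genes of like level leaned the same way, with medians of -0.07 for Dusp6, -0.13 for Spry2 and -0.11 for Spry4, so that the gap to that median was -0.25 for Dusp6, -0.12 for Spry2 and -0.16 for Spry4.

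The ETS factors Etv4 and Etv5, close paralogs induced by FGF signalling, had differences of opposite sign. Etv4 was at 8.81 in the induced and 8.66 in the non-induced array, with a difference of 0.15. Etv5 had 2 probe sets, both listed with the same transcripts. Probe set 10363901, which represents the gene because its mean is higher, was at 9.18 induced and 9.32 non-induced, a difference of -0.14. Probe set 10438626 was at 8.17 induced and 8.79 non-induced, a difference of -0.61 or 1.53-fold lower. Etv5 lies on chromosome 16, and of the 40 probe sets nearest by ID to 10438626, 38 were on that chromosome. For 10363901, 39 of 40 were on chromosome 10, so this probe set does not lie at the Etv5 locus by its ID. Which transcripts it reads was not tested. By 10438626 Etv5 was past log2 0.58, and it was the only member to be so. It then made 1 of 10 lower, against 8.52% of all genes at or above the floor when every probe set placed in such a way was left out. The value still lay inside the middle 95% of the 500 genes of like level (-0.88 to 0.52), and it was -0.51 after a second quantile normalization and -0.71 after centring.

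**Figure D2:**
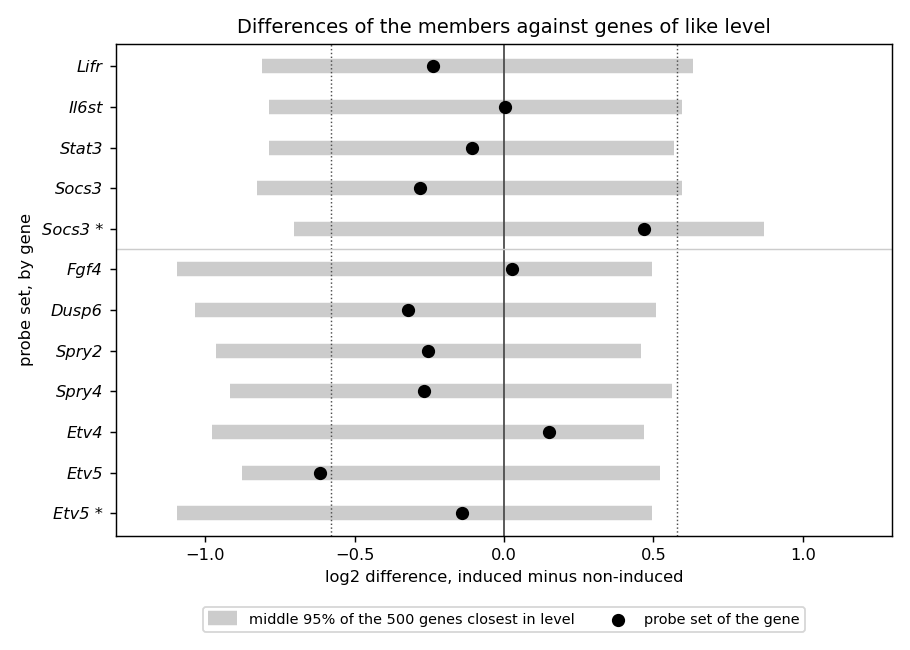
Log2 difference, induced minus non-induced, of the 12 probe sets (points) and the middle 95% of the differences of the 500 genes closest in mean level (bars); dotted lines mark log2 0.58 either way. Asterisks mark probe sets whose ID lies apart from their gene. All 12 points lie within their bars, and the Etv5 point at -0.61 alone lies past a dotted line.

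By pathway, the 4 LIF-STAT3 genes had a median difference of -0.17 with 3 below 0 and 1 above, and the 6 FGF-ERK genes one of -0.20 with 4 below and 2 above. With the probe sets that lie apart from their gene left out, the FGF-ERK median was -0.26 and the LIF-STAT3 median was unchanged at -0.17. The difference between the pathways was not tested. Centring shifted all values by the same amount. The arrays differed by 0.10 in the median level over genes, and with both arrays centred on their medians 9 of the 10 genes were below 0, with Fgf4 at -0.07 and Il6st at -0.09, and Etv4 was still above at 0.05. Genes at the floor then had a median of -0.13, and 3.06% of them were called higher and 12.3% lower. The share of genes at the floor below 0 was then 64.4%, against 53.4% as deposited. Under the 4 scalings tried (centring, lowess, quantile and offset) Fgf4 and Il6st were below 0 after centring alone, and the other 8 genes kept their sign.

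The wider pathways were then examined with 6 lists of 91 further genes, of which 81 were measured and 64 reached the floor. In these lists 6 genes were called higher and 5 were called lower, which is 9.38% and 7.81% of those at the floor, against 5.31% and 8.45% of all genes at the floor, and none was past log2 1. The median over the 81 genes was 0.01. For the higher genes the count was sensitive to scaling, being 2 after centring, 3 after lowess and 2 with the offset. The share of all genes at the floor that were higher fell as well, to 3.06%, 4.75% and 2.08%.

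Among other genes of the LIF and interleukin-6 family, 16 were measured, with a median of 0.04, and 11 reached the floor. Of those 11, 3 were called higher and 0 lower, against 5.31% and 8.45% of all genes at the floor. Besides Stat5a and Stat5b this was Jak2, a kinase of cytokine receptors, at 6.59 in the induced and 5.72 in the non-induced array (0.86, and 0.60 with the offset). Jak1, the kinase most used by gp130, was at 7.85 in both arrays, a difference of 0.00. The ciliary neurotrophic factor receptor gene Cntfr differed by 0.03. Other inhibitors of the SOCS family went both ways, with Socs1 at 0.44 and Socs2 at -0.38, by a probe set that lies apart from its gene, with -0.32 by the other. Lif itself was below the floor in both arrays (5.52 induced, 5.71 non-induced).

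Target genes of STAT3 in ES cells were spread around 0. Of 11 measured, all at the floor, 6 were below 0 and the median was -0.03. Of these 11, 0 were called higher and 1 lower, against 5.31% and 8.45% of all genes at the floor. The gene called lower was Myc, the growth-promoting transcription factor gene, at 8.19 in the induced and 9.003 in the non-induced array (-0.82). Among the self-renewal factors on this list, Tfcp2l1 was at 9.38 induced and 8.89 non-induced (0.49), Klf4 at 8.68 induced and 8.44 non-induced (0.24) and Klf5 at 10.20 induced and 10.24 non-induced (-0.03), while the homeobox gene Gbx2 was at 7.74 induced and 8.29 non-induced (-0.55). The kinase genes Pim1 and Pim3 differed by -0.19 and 0.05. None of these 6 reached log2 0.58.

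**Figure D3:**
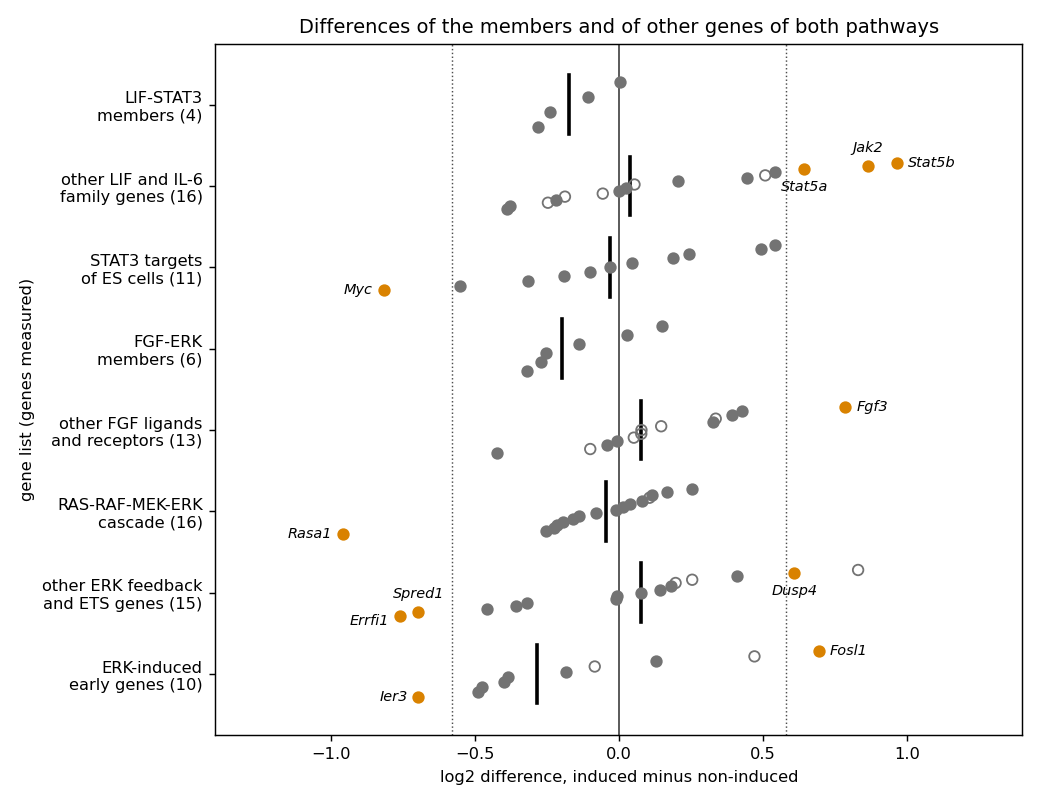
Induced minus non-induced log2 signal for every gene in the 2 member groups and 6 further lists, with the number of genes measured in brackets. Filled points reached the floor in at least 1 array, open points did not, black bars are list medians and orange points are genes past log2 0.58 (dotted lines) at the floor. The 6 orange points on the right reach from 0.61 (Dusp4) to 0.96 (Stat5b), and the 5 on the left from -0.70 (Ier3 and Spred1) to -0.96 (Rasa1).

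Upstream of ERK, FGF ligands and receptors had a median of 0.08 over 13 genes, of which 7 reached the floor. Of those 7, 1 (Fgf3) was called higher and 0 lower, against 5.31% and 8.45% of all genes at the floor. Fgfr1, the main FGF receptor of ES cells, was at 7.66 in the induced and 7.70 in the non-induced array (-0.04). Fgfr2, the receptor of primitive endoderm, was below the floor in both (5.51 induced, 5.45 non-induced). Fgf5, a marker of the primed epiblast, was below the floor too (5.82 induced, 5.92 non-induced). Fgf8 differed by 0.39, Fgf17 by -0.42 and the decoy receptor gene Fgfrl1 by 0.43.

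The RAS-RAF-MEK-ERK cascade stayed close to 0. Of 16 genes measured, 15 had differences that ran from -0.25 to 0.25 when rounded, and the median of the 16 was -0.04. The exception was Rasa1, which encodes a GTPase-activating protein that switches RAS off, at 7.45 in the induced and 8.41 in the non-induced array, with a difference of -0.96 or 1.94-fold lower. Of the 15 genes of this list at the floor, 0 were called higher and 1 lower, against 5.31% and 8.45% of all genes at the floor. The MEK gene Map2k1 was at 9.46 induced and 9.30 non-induced (0.17), Nras at 8.97 induced and 9.12 non-induced (-0.16), and the adaptor genes Gab1 and Shc1 differed by 0.04 and -0.21. A further 7 genes of this list were not analysed here.

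Further feedback inhibitors and ETS factors went both ways, with a median of 0.08 over 15 genes, 8 above and 7 below 0. Of the 12 at the floor, 1 was called higher and 2 lower, against 5.31% and 8.45% of all genes at the floor. Errfi1, an inhibitor of the epidermal growth factor receptor, was at 7.33 in the induced and 8.09 in the non-induced array (-0.76). Spred1, a Sprouty-related inhibitor of RAS, was at 8.15 induced and 8.85 non-induced (-0.70). Dusp4, a nuclear ERK phosphatase, was at 6.77 induced and 6.16 non-induced (0.61, and 0.45 to 0.56 under the 4 scalings). The phosphatase genes Dusp9 and Dusp1 were at 10.37 induced and 10.20 non-induced (0.18) and at 9.67 induced and 9.68 non-induced (-0.01), and Spred2 differed by 0.08, with -0.07 by its other probe set.

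Early genes induced by ERK had a median of -0.28, with 7 of 10 below 0, where 53.4% of all genes at the floor were below 0. Of the 8 at the floor, 1 was called higher and 1 lower, against 5.31% and 8.45% of all genes at the floor. Ier3 was at 6.32 in the induced and 7.02 in the non-induced array (-0.70, and -0.53 with the offset), while Fosl1, an AP-1 subunit gene, was at 6.38 induced and 5.68 non-induced (0.69). The Fosl1 call was lost under all 4 scalings. It fell short of the size after lowess (0.56) and with the offset (0.47). After centring (0.60) and the second quantile normalization (0.62) it was below the floor in both arrays. Egr1 was at 7.56 induced and 8.04 non-induced (-0.48) and the cyclin gene Ccnd1 at 9.52 induced and 9.91 non-induced (-0.39), while the ephrin receptor gene Epha2 was at 8.55 induced and 8.74 non-induced (-0.18) and Emp1 at 7.80 induced and 7.67 non-induced (0.13).

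**Figure D4:**
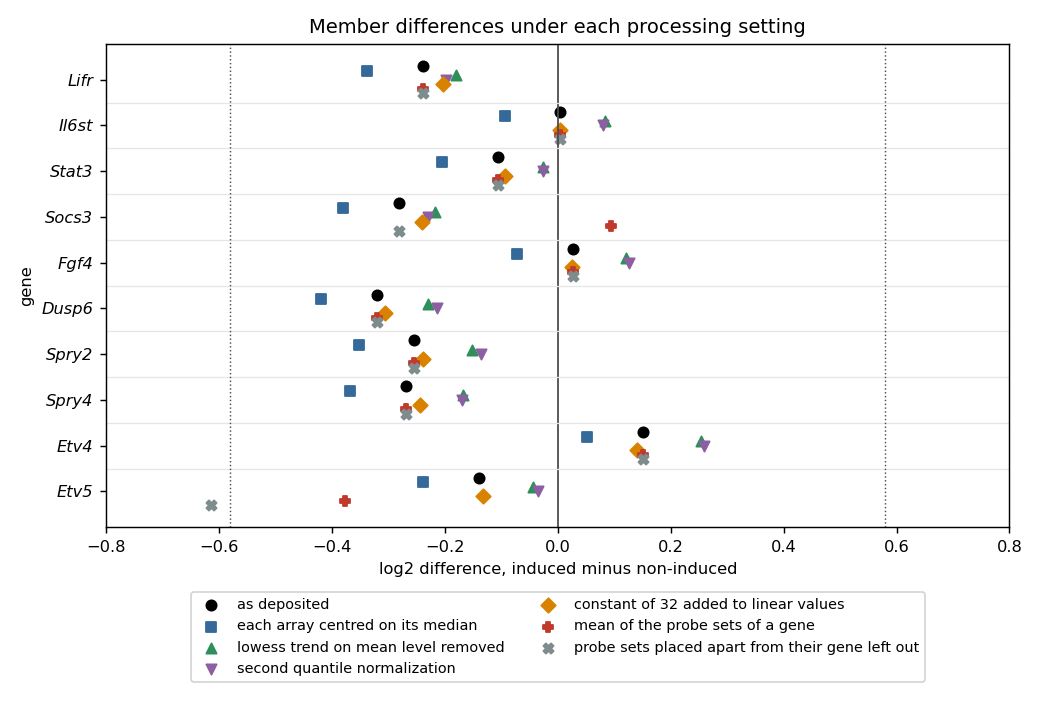
Log2 difference, induced minus non-induced, of the 10 genes as deposited and under 6 alternatives in processing. Points of Lifr, Dusp6, Spry2 and Spry4 stay left of 0 and those of Etv4 right of 0, Socs3 crosses 0 with the mean of its probe sets (0.094), and Etv5 is at -0.61 without the probe set placed apart from its gene.

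An ES culture can hold cells that have left self-renewal, and LIF and FGF genes are also used by them, so markers of such cells were set beside the values above. The ES cell identity genes had a median of -0.17 with 8 of 10 below 0, with a summed linear signal of 22794 in the induced and 23219 in the non-induced array, and none was past log2 0.58. The widest were Zfp42 (-0.46), Dppa4 (-0.43 and -0.07 by its other probe set) and Klf2 (-0.37). Of all genes at the floor 53.4% were below 0, and 62.1% (median -0.09) with the floor at the 75th percentile. With no floor 48.6% were below 0, and the 500 genes closest to a mean level of 6.48 had a median of 0.14. So brighter genes leaned down and dimmer genes up on these arrays. The part of this lean in the marker values was not tested. Fibroblast and mesenchyme markers had a median of 0.31 with 11 of 13 above 0, 7 at the floor and a summed linear signal of 3984 in the induced and 3556 in the non-induced array, with Col3a1 at 0.53, Col1a2 at 0.47 and Col1a1 at 0.42. The 2 below 0 were Vim, at 9.71 induced and 9.96 non-induced (-0.25), and Dcn, below the floor (-0.28). Endoderm markers had a median of 0.25 with 7 of 10 above 0, 5 at the floor and a summed signal of 771 in the induced and 697 in the non-induced array, with Hnf4a at 0.76 and Gata4 at 0.26 but Foxa2 at -0.85. Primitive streak and mesoderm markers had a median of 0.12, with 2 of 7 at the floor and sums of 483 induced and 425 non-induced, with Tbx6 at 0.76 and Hand2 at 0.17. Neural markers had a median of 0.04, with 3 of 7 at the floor and sums of 838 induced and 887 non-induced, with Stmn2 at -1.19, Sox1 at 0.26 and Tubb3 at -0.12. Trophoblast markers had a median of -0.10, with 5 of 8 at the floor and sums of 838 induced and 849 non-induced, with Gata3 at -0.60, Tfap2c at -0.23 and Krt8 at 0.20. In a bulk sample, fewer cells of a type and less RNA per cell cannot be told apart. The part of such cells in the values of the 10 genes was not tested.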

How the data were processed

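RNA of both groups (300 ng per array, per the labels) was hybridized to Affymetrix Mouse Gene 1.0 ST arrays. The deposited values are log2 signals, 1 per probe set, which the authors obtained by robust multi-array averaging (background correction, quantile normalization and summary of probes). Its version and the array annotation were not given in the sources used here. Values ran from 1.36 to 14.5, which fits the log2 unit. This method compresses fold differences of dim genes. Precision is limited by having 1 array in each group.

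Symbols came from GEO's annotation of the platform, with current symbols, chromosomes and gene order from RefSeq (GRCm38.p6): of 35557 probe sets 21789 had 1 symbol and 1621 several, and 21698 matched by gene identifier. The 999 genes with several probe sets took their value from the probe set of highest mean. The members and lists were chosen with earlier results of these data known. Named genes were the members and, of each pathway list, genes past log2 0.58 at the floor and the 4 with the highest mean; of marker lists, the 3 widest at the floor. Outside this rule, and after their values were seen, Osmr, Il31ra, Fgf15, Lif, Klf4, Gbx2, Fgf5, Fgfr2, Pou5f1, Sox2, Nanog, Vim and Dcn were named.

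Alternatives were centring, lowess (fraction 0.3), quantile normalization, an offset of 32 on the linear scale, the mean of probe sets, other sizes and floors, and, added after seeing the data, leaving out the 846 probe sets (3.88%) whose 20 neighbours by ID on either side lay mostly on another chromosome or strand than the gene. Strand was known only for genes with a promoter window. The steps were tested on simulated data. Python 3.11.15, numpy 2.4.6, pandas 2.3.3, statsmodels 0.14.6 and matplotlib 3.10.9 were used.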

Additional observations from a re-analysis of the deposited data

How the results depend on the processing

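A value was taken as unmoved within 0.25, the semi-interquartile range of all gene differences, and a count within 1.5 times. This width is as large as most member differences. Genes with 1 probe set could change only under the 4 scalings, and under those Il6st (-0.09) and Fgf4 (-0.07) changed sign after centring. Socs3 was at 0.094 with the mean of its probe sets. Leaving out probe sets placed apart from their gene, an alternative chosen after seeing the data, put Etv5 at -0.61 and made 1 of the 10 genes lower past log2 0.58, against 0 otherwise. The cause of this placement was not tested. Of the 81 measured pathway genes, 64 at the floor as deposited, 6 were higher past log2 0.58. The count was 2 after centring, 3 after lowess, 2 with the offset of 32, and 0 at a size of log2 1 or with the floor at the 75th percentile. Of all genes at the floor 5.31% were higher as deposited, and 3.06%, 4.75%, 2.08%, 0.477% and 2.36% in that order. Lower were 5 pathway genes, but 0 at log2 1, where 1.79% of all genes at the floor were lower. With the offset, Jak2 was at 0.60 and Fgf3 at 0.52. The calls of Stat5a, Dusp4 and Fosl1 were lost under all 4 scalings, that of Fgf3 under 3 and that of Ier3 under 1. Of all called genes at the floor 38.6% were higher as deposited (568 higher, 904 lower), 19.9% after centring (326 and 1312), 26.1% with the offset, 17.8% with the higher floor and 21.1% at log2 1. The medians of both member groups were below 0 under every alternative, from -0.27 to -0.05 for LIF-STAT3 and from -0.30 to -0.09 for FGF-ERK genes. No paired analysis was possible because each group had 1 array.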
